A study of Mus musculus with 6 samples.

Results

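AP-1 and the immediate early factors were followed gene by gene in RNA-seq of pancreatic stellate cells (PSCs) kept at 21% or 1% O2. PSCs are a precursor population of cancer-associated fibroblasts. The members were 10 transcription factor genes chosen by name, namely *Fos*, *Fosb*, *Fosl1*, *Fosl2*, *Jun*, *Junb*, *Jund*, *Egr1*, *Atf3* and *Maff*, out of 55426 features in the deposited table. All 10 were in the table, and all 10 passed the filter on low counts, with a lowest count of 45 in any sample. The PSCs were low-passage primary lines isolated from adult wild-type C57BL/6 mice of both sexes, seeded in Matrigel in a transwell insert above organoids of mT3, a pancreatic ductal adenocarcinoma (PDAC) cell line from a genetic mouse model in which a mutant Trp53 allele is switched on by Pdx1-driven Cre. Both groups, 3 normoxic samples at 21% O2 and 3 hypoxic samples at 1% O2, shared this coculture and differed in O2 for 48 h. All samples therefore had the same single tumor line below them, and PSCs without tumor organoids were not analysed here. The labels do not say whether the 3 samples of a condition came from separate PSC lines or mice, so p-values measure the spread between these samples, which may be technical.

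AP-1 is a dimer of basic leucine zipper (bZIP) proteins. JUN proteins pair with each other or with FOS proteins, FOS proteins need a JUN partner, and the pairs bind the short DNA site TGACTCA. The family includes strong activators such as FOS and JUN, members without a strong activation domain such as FOSL1 and FOSL2, and the relatives ATF3 and the small MAF protein MAFF, while EGR1 is a zinc finger factor made in the same early wave. Most of these genes are switched on within minutes of a stimulus and then off again, and in fibroblasts AP-1 is known for its control of matrix metalloproteases and inflammatory genes. The samples here were taken after 48 h, so they show levels long after the change of O2.

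Each normoxic library held between 24749601 and 25914892 counts, and each hypoxic one between 25847719 and 31925054. Levels are given as CPM, the count relative to a library size scaled by the TMM method. Fibroblast markers were abundant in every sample (*Pdgfra* and *Pdpn* were called higher at 1% O2, *Lum* and *Thy1* lower), with a summed level of 28424 to 35619 CPM over 10 genes in normoxic and 30459 to 35302 in hypoxic samples. Of 12 macrophage and immune markers, all were detected, and their summed level was 1020 to 1822 CPM in normoxic and 515 to 944 in hypoxic samples. Of 10 epithelial markers 3 were tested. The defining ones, *Epcam* and *Cdh1*, had at most 1 count in a sample, *Ocln* had 0 in all, and the summed level of the tested ones was 3.19 to 5.23 CPM in normoxic and 24.8 to 28.9 in hypoxic samples, carried at 1% O2 by *Krt19*. Of 6 endothelial markers 5 were tested, and these 5 summed to 9.94 to 15.4 CPM in normoxic and 14.8 to 21.4 in hypoxic samples, with *Tek* called higher and *Kdr* lower.

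Promoter sequences were read from RefSeq (GRCm38.p6), which gave 10 start sites for 8 of the 10 genes. *Fosl1* and *Egr1* have no sequence here. The 150 bases before each start were searched on both strands for the AP-1 site TGACTCA, the cAMP response element TGACGTCA, the variant TGACATCA, the short element TGACG (which is also part of TGACGTCA), the EGR site GCGTGGGCG, the core ACGTG of hypoxia response elements, and the CArG box of serum response factor. The element TGACG was in 6 of the 10 windows, against 13.3% of all 32851 windows of this length. It was found for *Fos*, *Fosb*, *Junb*, *Atf3* and *Maff*, so genes on either side of the comparison below carry it. TGACATCA was in 2 windows, those of *Jun* and the third start of *Maff* (2.32% of all windows). The second start of *Maff* had the only TGACGTCA (1.36%) and the only GCGTGGGCG (0.426%) among these windows. ACGTG was in 1 window, that of *Jund* (11.2% of all windows). No window held TGACTCA (2.84% of all windows) or a CArG box (0.916%), which says only that these letters are not in these 150 bases. *Fosl1* and *Egr1* were not among the genes searched. The RefSeq start of *Jund* lies 1210 bases before the start of the gene in GENCODE, and that of *Atf3* lies 34706 bases inside it. The windows of 6 starts are printed below, 5′ to 3′ on the strand of the gene, because they hold these matches in genes that differed in direction. Capitals mark the matches, and CGTCA in *Atf3* is TGACG read on the other strand. They are *Fos* (chr12:85473740-85473889, plus strand), *Fosb* (chr7:19310046-19310195, minus), *Jun* (chr4:95052223-95052372, minus), *Junb* (chr8:84978749-84978898, minus), *Atf3* (chr1:191183334-191183483, minus) and the second start of *Maff* (chr15:79347370-79347519, plus).
Fos: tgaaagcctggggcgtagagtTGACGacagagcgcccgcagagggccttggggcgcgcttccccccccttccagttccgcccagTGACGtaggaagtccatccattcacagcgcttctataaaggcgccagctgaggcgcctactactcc
Fosb: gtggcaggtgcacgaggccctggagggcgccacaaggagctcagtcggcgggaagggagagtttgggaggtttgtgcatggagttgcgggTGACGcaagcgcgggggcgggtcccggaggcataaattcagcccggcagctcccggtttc
Jun: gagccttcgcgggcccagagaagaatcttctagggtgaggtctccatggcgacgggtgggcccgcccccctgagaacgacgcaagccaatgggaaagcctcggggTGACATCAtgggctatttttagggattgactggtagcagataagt
Junb: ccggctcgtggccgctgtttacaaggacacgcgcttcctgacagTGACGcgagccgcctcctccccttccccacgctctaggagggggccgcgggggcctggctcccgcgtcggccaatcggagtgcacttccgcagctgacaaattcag
Atf3: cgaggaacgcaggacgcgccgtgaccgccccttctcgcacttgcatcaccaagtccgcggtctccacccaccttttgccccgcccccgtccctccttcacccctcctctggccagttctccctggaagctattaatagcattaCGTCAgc
Maff: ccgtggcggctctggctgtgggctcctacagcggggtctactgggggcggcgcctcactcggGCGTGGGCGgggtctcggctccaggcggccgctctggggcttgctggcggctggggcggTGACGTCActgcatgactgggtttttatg

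To ask which of these factors changed with O2, the conditions were set against each other by the quasi-likelihood test of edgeR over 16207 genes, with a call at a fold change beyond 1.5 and a Benjamini-Hochberg adjusted p under 0.05. *Fosl1*, *Fosl2*, *Jun*, *Atf3* and *Maff* rose at 1% O2, *Egr1* fell, and *Fos*, *Fosb*, *Junb* and *Jund* were not called. Thus 6 of 10 members were called, 5 higher and 1 lower, where 34.2% of all tested genes were called, 18.9% higher and 15.3% lower. The median log2 fold change was 0.87 over the members and -0.004 over all tested genes. No member had overlapping samples between the conditions. All hypoxic samples were above all normoxic ones for 8 members (34.9% of all tested genes) and below them for 2, *Fos* and *Egr1* (34.0% of all tested genes). Without the fold limit, 9 members had an adjusted p under 0.05 by edgeR, 7 higher and 2 lower, against 62.7% of all tested genes, 31.8% higher and 31.0% lower. *Fosb* was the exception.

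**Figure D1:**
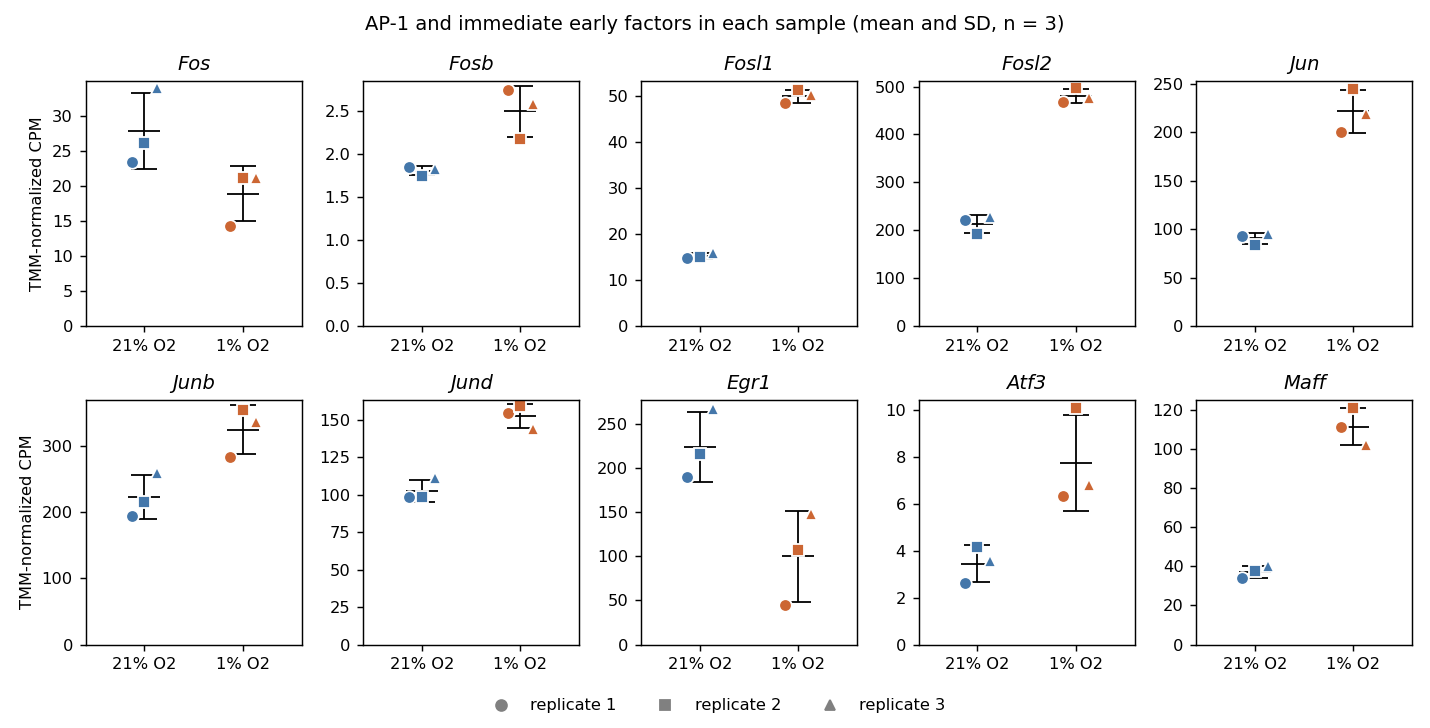
TMM-normalized CPM of the 10 genes in each of the 6 samples (linear axes from 0), with markers by replicate number and the mean and SD of each condition (n = 3). The conditions do not overlap in any panel, and *Fos* and *Egr1* are the panels in which the samples at 1% O2 lie below those at 21%.

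**Figure D2:**
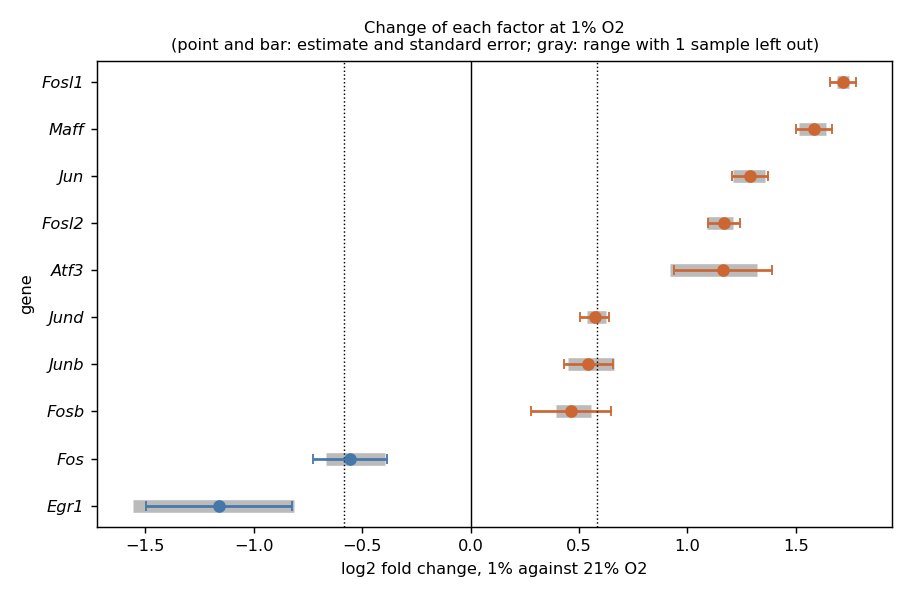
Log2 fold change of each gene at 1% against 21% O2 with its standard error from edgeR, the range when 1 sample at a time is left out (gray), and dotted lines at a fold change of 1.5. *Fosl1* (1.72) and *Maff* (1.58) lie farthest to the right and *Egr1* (-1.16) farthest to the left, with the widest gray range.

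In the FOS family the largest change was that of *Fosl1*, which encodes FRA-1 (ENSMUSG00000024912; chromosome 19 of GRCm38, 5447547 to 5455946, plus strand, 4 exons, counted in the longest coding transcript here and below). Its level was 14.7, 14.99 and 15.9 CPM in normoxic replicates 1, 2 and 3 and 48.4, 51.2 and 50.2 CPM in the hypoxic ones. The samples of a condition lay close together, and the highest hypoxic sample was 1.06 times the lowest. *Fosl1* rose 3.29-fold (log2 fold change 1.72, standard error (SE) of 0.06, adjusted p = 8.01e-08 by edgeR), and the log2 fold change stayed between 1.69 and 1.74 with each sample left out. In the annotation 1163 bases of its exons are shared with *Ccdc85b* on the opposite strand, and the strand setting of the counting is not given in the sources used here. *Ccdc85b* had 2963 to 3018 counts in normoxic and 3108 to 4058 in hypoxic samples, against 382 to 395 and 1232 to 1605 for *Fosl1*.

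*Fosl2*, the gene of FRA-2 (ENSMUSG00000029135; chromosome 5, 32135801 to 32157842, plus strand, 4 exons), had the highest CPM of the members at 1% O2. Its normoxic samples held 222, 192 and 227 CPM and its hypoxic samples 467, 496 and 477. The gap between the conditions was wider than the spread within either of them. It rose 2.25-fold (log2 fold change 1.17, SE 0.07, adjusted p = 1.78e-06 by edgeR).

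*Fos* itself (ENSMUSG00000021250; chromosome 12, 85473890 to 85477273, plus strand, 4 exons) lay the other way, at 23.4, 26.0 and 34.0 CPM in normoxic and 14.3, 21.2 and 21.1 CPM in hypoxic samples. The lowest normoxic sample was only just above the highest hypoxic one, and hypoxic replicate 1 was below the other two. Its log2 fold change was -0.55 (SE 0.17, adjusted p = 0.0184 by edgeR), short of the fold limit. It passed in 4 of the 6 fits that left out 1 sample (-0.67 without normoxic replicate 1, -0.60 without normoxic replicate 2, -0.65 without hypoxic replicate 2 and -0.64 without hypoxic replicate 3). Without normoxic replicate 3 it was -0.39 with an adjusted p of 0.0715 by edgeR. *Fosb* (ENSMUSG00000003545; chromosome 7, 19302696 to 19310051, minus strand, 4 exons) was the least abundant member, on 45 to 48 counts per normoxic and 68 to 82 per hypoxic sample. Its levels were 1.85, 1.75 and 1.83 CPM at 21% O2 and 2.75, 2.17 and 2.58 CPM at 1% O2. The log2 fold change was 0.46 (SE 0.19, adjusted p = 0.0534 by edgeR), which was not called in any alternative fit.

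Among the JUN genes, each with 1 exon in its longest coding transcript, *Jun* (ENSMUSG00000052684; chromosome 4, 95049034 to 95052222, minus strand) changed most. *Jun* was at 93.0, 83.8 and 95.1 CPM in normoxic and 201, 245 and 219 CPM in hypoxic samples. Every hypoxic sample held more than the highest normoxic one, by a margin several times the normoxic spread. *Jun* rose 2.45-fold (log2 fold change 1.29, SE 0.08, adjusted p = 2.11e-06 by edgeR). The antisense gene *Junos*, which shares 232 exon bases with it, had 9 to 14 counts in normoxic and 60 to 79 in hypoxic samples, against 2209 to 2415 and 5108 to 7681 for *Jun*.

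*Junb* (ENSMUSG00000052837; chromosome 8, 84974484 to 84978718, minus strand), often a restraint on JUN activity, was at 195, 215 and 259 CPM at 21% O2 and 284, 355 and 337 CPM at 1% O2. Normoxic replicate 3 was only slightly below hypoxic replicate 1. The log2 fold change was 0.54 (SE 0.11, adjusted p = 0.00265 by edgeR), within the fold limit. Without normoxic replicate 3 (0.66) or hypoxic replicate 1 (0.63) it was called higher. Its exons share 173 bases with *Prdx2* on the opposite strand, which had 4923 to 5572 normoxic and 4200 to 4862 hypoxic counts. *Jund* (ENSMUSG00000071076; chromosome 8, 70698949 to 70700616, plus strand), usually the steadily expressed JUN gene, was at 98.2, 98.7 and 111 CPM and then 154, 159 and 144 CPM. Both sets of samples were tight and did not meet. The log2 fold change of *Jund* was 0.57 (SE 0.07, adjusted p = 7.6e-05 by edgeR), just within the fold limit, and it was called higher without normoxic replicate 3 (0.63) or hypoxic replicate 3 (0.61) and with a filter of 1 CPM in 3 samples (0.59). The antisense gene *Gm11175*, with 877 exon bases in common with *Jund*, had at most 16 counts in a sample.

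The makeup of each family was compared within samples, which does not depend on scaling between libraries. Shares were taken of counts divided by exon length, summed over the family. *Fos* made up 24.7, 28.7 and 31.4% of the FOS family transcripts in normoxic samples and 7.76, 10.5 and 10.8% in hypoxic samples. *Fosl1* made up 17.9, 19.1 and 17.0% and then 30.3, 29.4 and 29.6%. At 21% O2 *Fos* exceeded *Fosl1* in each sample, and at 1% O2 the order was the other way round in each. The size of these differences depended on the division by length, since without it the *Fos* share was 7.33 percentage points lower at 1% O2 instead of 18.6, the *Fosl1* share 3.16 points higher instead of 11.8 and the *Fosl2* share 4.42 points higher instead of 7.03. *Fosl2* was the largest part throughout, at 53.0 ± 3.15% in normoxic and 60.1 ± 1.19% in hypoxic samples (SD, n = 3 each), and *Fosb* stayed below 1% in all samples. In the JUN family *Jun* went from 15.3 ± 1.41% to 23.0 ± 0.506% and *Junb* from 51.7 ± 2.50% to 46.6 ± 2.21%, without overlap, while *Jund* (33.0 ± 1.15% and 30.4 ± 2.48%) overlapped (SD, n = 3 each). The exact two-sided permutation p was 0.1 for 6 of the 7 shares (0.117 after Benjamini-Hochberg adjustment over the 7) and 0.3 for *Jund*. With 3 samples against 3, 0.1 is the smallest p such a test can give, so no share could reach 0.05.

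**Figure D3:**
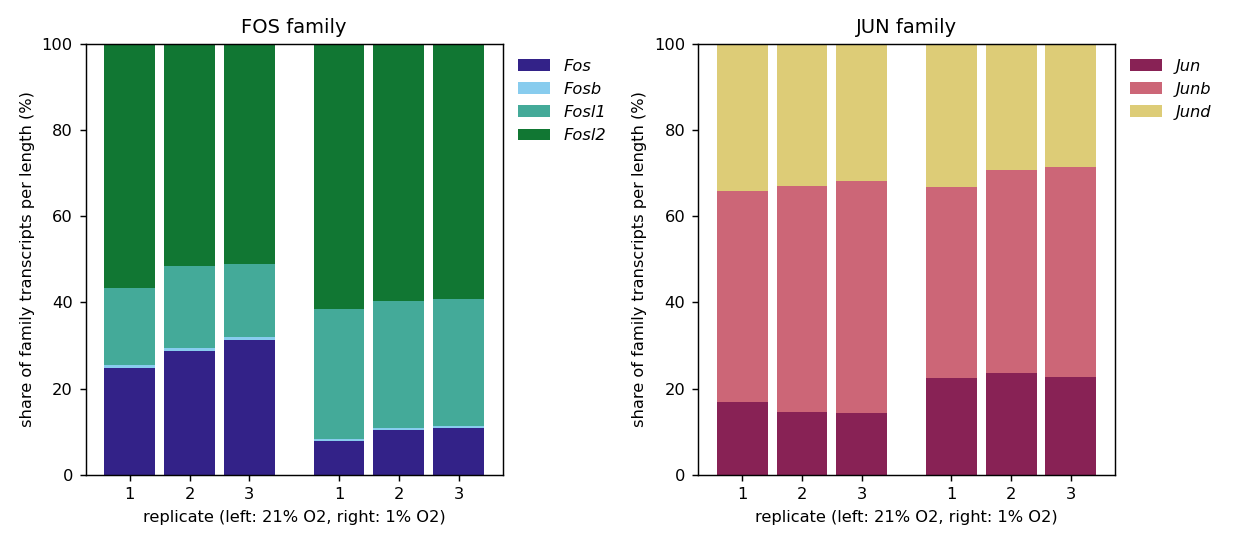
Share of each gene in the summed counts per exon length of its family, in percent, as stacked bars for each of the 3 normoxic (left) and 3 hypoxic (right) samples. The *Fos* part is 24.7 to 31.4% in normoxic and 7.76 to 10.8% in hypoxic samples, and the *Jun* part is 14.3 to 16.9% and 22.6 to 23.5%.

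As ratios of counts, *Fosl1* to *Fos* had a log2 ratio of -0.67, -0.80 and -1.10 in normoxic and 1.75, 1.27 and 1.25 in hypoxic samples, a difference of 2.28 between the means. The log2 ratio of *Fosl2* to *Fos* was 1.74 higher at 1% O2 and that of *Fosb* to *Fos* 1.02 higher. Relative to *Jun*, *Junb* was lower by 0.74 (log2 ratio 1.29 ± 0.20 in normoxic and 0.55 ± 0.06 in hypoxic samples, SD, n = 3 each) and *Jund* by 0.71 (0.18 ± 0.09 and -0.53 ± 0.14). All 6 ratios tested separated the conditions, with an exact permutation p of 0.1 each (0.1 after adjustment over the 6). The sum of the FOS family per exon length was 41.7 ± 3.88 CPM per kb in normoxic and 82.6 ± 3.67 in hypoxic samples, and that of the JUN family was 187 ± 19.5 and 302 ± 23.9 (SD, n = 3 each). JUN family transcripts thus outnumbered FOS family transcripts per length in both conditions. The log2 ratio of FOS to JUN family counts went from -0.69 ± 0.11 to -0.34 ± 0.07 (SD, n = 3 each).

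*Egr1*, a zinc finger factor of the growth factor response (ENSMUSG00000038418; chromosome 18, 34859823 to 34864984, plus strand, 2 exons), was the only member called lower. It was at 189, 216 and 266 CPM in normoxic and 45.2, 107 and 148 CPM in hypoxic samples. The hypoxic samples were far apart, the highest 3.27 times the lowest, and all were below the lowest normoxic sample. The log2 fold change was -1.16 (SE 0.34, adjusted p = 0.0139 by edgeR). Its size depended on the samples, at -0.81 without hypoxic replicate 1 (adjusted p = 0.00415 by edgeR) and -1.56 without hypoxic replicate 3. Without normoxic replicate 3 it was -1.02 with an adjusted p of 0.0512 by edgeR, and the call was lost.

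The levels of macrophage and immune markers moved with this comparison too. Of the 12 markers, 8 were called lower at 1% O2 (15.3% of all tested genes) and 0 higher, with a median log2 fold change of -1.09. Among them were *Tyrobp* (-1.35), the complement gene *C1qa* (-1.26), and *Adgre1* (-1.05) and *Cd68* (-1.01). The 4 not called were *Mrc1* (-0.64), *Ptprc* (-0.59), *Csf1r* (-0.24) and *Itgam* (-0.002). In bulk RNA fewer cells of a type and less RNA per cell cannot be told apart. The summed level of the 12 markers was 1020, 1822 and 1423 CPM in normoxic replicates 1, 2 and 3 and 515, 944 and 634 CPM in the hypoxic ones. Most of it was *Lyz2*, at 653, 1164 and 883 CPM in the normoxic and 315, 546 and 378 CPM in the hypoxic replicates. The sum was lowest in replicate 1 of either condition, as *Egr1* was, but highest in replicate 2, where *Egr1* was highest in replicate 3. *Fos*, *Fosl1*, *Junb* and *Atf3* were also lowest in replicate 1 of either condition. *Atf3*, which was called higher at 1% O2, had the same order of samples as the marker sum in both conditions, with replicate 2 highest. The part of these cells in the levels of the members was not tested.

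Samples of a condition differed in the same direction for several members. Hypoxic replicate 1 was the lowest of the 3 hypoxic samples for 7 of the 10 members, *Fos*, *Fosl1*, *Fosl2*, *Jun*, *Junb*, *Egr1* and *Atf3*, where 33.9% of all tested genes had it lowest. Its *Egr1* level was 0.355 times the mean of the other two hypoxic samples, its *Fos* level 0.679 times and its *Fosl1* level 0.954 times. Normoxic replicate 3 was the highest of its condition for 8 members, against 26.8% of all tested genes. The spread was unequal among the members. The highest hypoxic sample was at least 1.5 times the lowest for *Egr1* and *Atf3* alone (14.7% of all tested genes), and at 21% O2 for *Atf3* alone (19.7%).

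**Figure D4:**
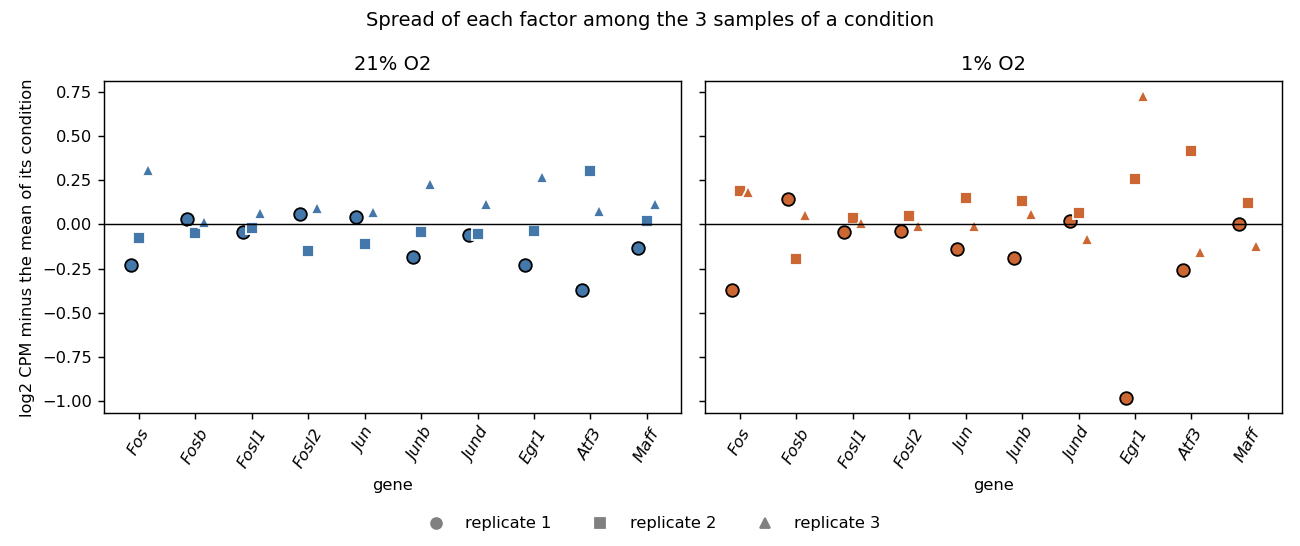
Log2 CPM of each gene minus the mean of its condition, for the 3 samples at 21% O2 (left) and at 1% O2 (right), with markers by replicate number and replicate 1 outlined in black. *Egr1* in hypoxic replicate 1 lies farthest from 0, and *Fosl1* and *Fosl2* lie close to 0 in the hypoxic samples.

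*Atf3*, a stress-induced bZIP factor (ENSMUSG00000026628; chromosome 1, 191170296 to 191218039, minus strand, 4 exons), was low in every sample, at 2.62, 4.18 and 3.57 CPM in normoxic and 6.32, 10.1 and 6.79 CPM in hypoxic samples. Replicate 2 was the highest in either condition. It rose 2.24-fold (log2 fold change 1.16, SE 0.23, adjusted p = 0.00167 by edgeR), on 68 to 110 counts against 161 to 316. *Maff*, a small MAF protein without an activation domain (ENSMUSG00000042622; chromosome 15, 79346621 to 79359076, plus strand, 3 exons), was at 33.9, 37.6 and 40.2 CPM in normoxic and 112, 121 and 102 CPM in hypoxic samples. The lowest hypoxic sample was well above all normoxic samples. *Maff* rose (log2 fold change 1.58, SE 0.08, adjusted p = 6.78e-07 by edgeR), the largest change after *Fosl1*.

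Per kb of exon, the members kept much of their order between the conditions. At 21% O2 they ran from *Junb* (97.0 ± 14.4 CPM per kb) through *Jund* (61.5 ± 4.34), *Egr1* (49.9 ± 8.75), *Jun* (28.4 ± 1.88), *Fosl2* (22.1 ± 1.95), *Maff* (14.4 ± 1.21), *Fos* (11.8 ± 2.33), *Fosl1* (7.47 ± 0.296) and *Atf3* (1.604 ± 0.364) to *Fosb* (0.289 ± 0.0086; SD, n = 3 each). The samples of *Jund* and *Egr1* overlapped, as did those of *Maff* and *Fos*. At 1% O2 *Junb* (141 ± 16.1) and *Jund* (91.5 ± 4.64) stayed first, followed by *Jun* (69.5 ± 7.01), *Fosl2* (49.6 ± 1.54), *Maff* (43.0 ± 3.65), *Fosl1* (24.6 ± 0.708), *Egr1* (22.3 ± 11.5), *Fos* (8.02 ± 1.67), *Atf3* (3.59 ± 0.952) and *Fosb* (0.400 ± 0.0476; SD, n = 3 each). Only the neighbours *Fosl1* and *Egr1* overlapped there. *Egr1* moved from rank 3 of 10 to rank 7, and *Fosl1* from rank 8 to rank 6.

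For each member the tested gene with the most similar pattern was found among 14238 genes with a mean of at least 1 CPM, by the Euclidean distance between mean-centered log2 CPM over the 6 samples. *Fosl1* lay nearest to *Arrdc3* (distance 0.072), *Fosl2* to *Cercam* (0.070), *Jun* to *Ptprn* (0.083), *Jund* to *Cacfd1* (0.073) and *Fosb* to *Cacna1g* (0.10). The nearest genes of *Maff* (*Hcn3*, 0.13), *Junb* (*Sema3b*, 0.16), *Fos* (*Gm12906*, 0.19), *Atf3* (*Tpbgl*, 0.21) and *Egr1* (*Tnfsf15*, 0.44) were farther away. Among the members, *Jun* and *Fosl2* were each other's nearest (0.21), as were *Fosl1* and *Maff* (0.25), *Junb* and *Jund* (0.31), and *Fos* and *Egr1* (1.23).

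Other genes around these factors were described from lists, each to be read against the 34.2% of all tested genes that were called, 18.9% higher and 15.3% lower. Of 15 further bZIP partners, 4 were higher and 4 lower (median log2 fold change 0.21). The higher ones were *Atf7* (0.80), the stress factor *Nfe2l2* (0.69), the small MAF gene *Mafg* (0.69) and *Batf3*, which was near 0 at 21% O2 (0.0917 and 1.05 mean CPM). Among the lower ones were the AP-1 repressor *Jdp2* (-0.64), *Maf* (-0.60) and *Batf* (-1.38), the last also low in level (0.849 and 0.317 mean CPM). Of 22 other immediate early genes 21 were tested, of which 2 were higher and 4 lower (median 0.13), a share near that of all tested genes. The higher ones were *Ier3*, from 47.0 ± 8.47 to 378 ± 36.4 CPM (SD, n = 3 each), and *Csrnp1* (log2 fold change 0.97), and the lower ones were *Arc* (-1.34), *Nr4a1* (-0.94), *Btg2* (-0.86) and *Ier2* (-0.66). Hypoxic replicate 1 was the lowest hypoxic sample for 12 of the 21, where it was lowest for 33.9% of all tested genes. It was lowest for 12 of the 12 macrophage and immune markers, 5 of the 16 kinase and serum response factor genes upstream of FOS and JUN, 12 of the 18 AP-1 and EGR1 targets and 1 of the 10 heat shock genes described next. Of 16 kinase and serum response factor genes upstream of FOS and JUN, 3 were higher, about the share among all tested genes, and 0 lower (median 0.08), namely the kinases *Map3k8* (1.46), *Map2k1* (1.17) and *Map2k7* (1.01). Of 16 feedback inhibitors of the pathway, 2 were higher, the phosphatases *Dusp8* (0.82) and *Dusp10* (0.93), and 2 lower, *Spry4* (-1.47) and *Dusp14* (-1.14), with a median of 0.05, again no larger a share than among all tested genes. *Dusp14* was low in level (1.02 mean CPM at 21% and 0.446 at 1% O2), and its samples overlapped between the conditions.

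Of 18 genes that textbooks give as targets of AP-1 or EGR1, 14 were higher at 1% O2 and 0 lower, with a median log2 fold change of 1.75, where 18.9% of all tested genes were called higher. The largest change was that of the prostaglandin synthase *Ptgs2*, at 13.3, 10.2 and 13.7 CPM in normoxic and 194, 220 and 242 CPM in hypoxic samples (log2 fold change 4.14, adjusted p = 4.29e-08 by edgeR). The metalloprotease *Mmp9* followed (log2 fold change 3.39). It was low and uneven, at 0.616, 0.873 and 0.527 CPM in normoxic and 4.36, 11.7 and 5.12 CPM in hypoxic samples. The smallest called changes were those of *Mmp3* (0.76) and the growth factor *Hbegf* (0.92). The list was written with earlier results of these data known, and many of its genes answer to other factors as well. Of 10 heat shock genes, which respond to the handling of cells as immediate early genes do, 2 were higher, *Hspa1a* (log2 fold change 1.72) and *Hspa1b* (1.87), and 2 lower, *Hspe1* (-1.04) and *Hspd1* (-0.80), with a median of 0.27, where 34.2% of all tested genes were called. The part of handling in the levels of the 10 factors was not tested.

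**Figure D5:**
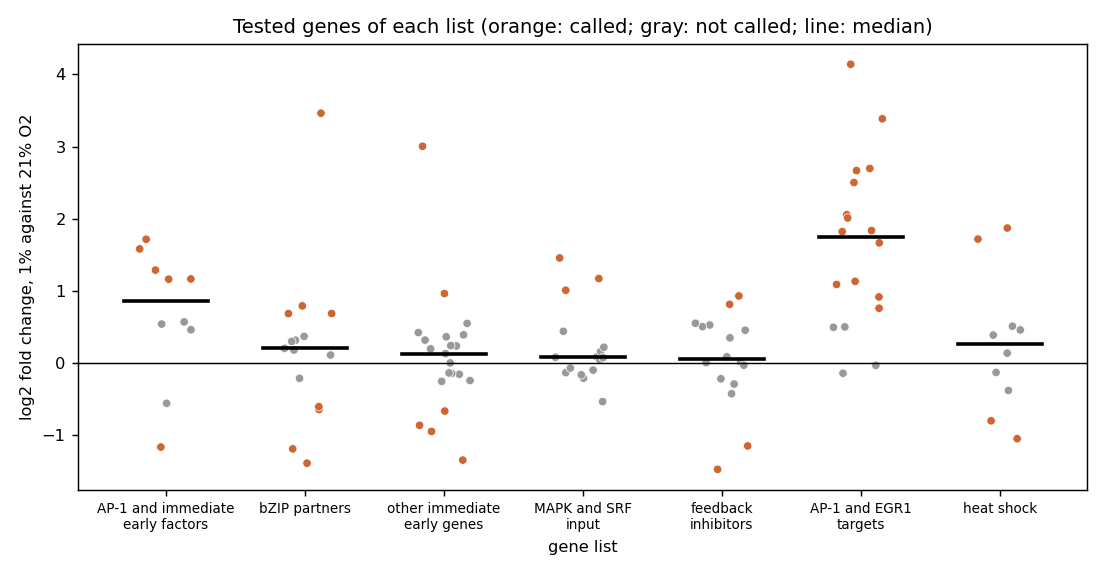
Log2 fold change of the 10 factors and of the tested genes of 6 lists at 1% against 21% O2, each point a gene (orange where called, gray where not), with the list's median as a line. The medians are 0.87 for the 10 factors and 1.75 for the AP-1 and EGR1 targets, and between 0.05 and 0.27 for the other lists.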

How the data were processed

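Poly(A) RNA of PSCs cocultured with mT3 organoids was sequenced by the authors in 6 samples on a NovaSeq-6000. The submitters' processing notes name STAR (version 2.6.1b), RSEM (version 1.3.1) and the build GRCm38. Per the methods, STAR did the alignment, after adapter removal by Cutadapt, and RSEM the estimation per gene. The authors deposited 1 table of expected counts, estimated per gene and not normalized between samples. All values were whole numbers. The annotation release and the strand setting are not given in the sources used here.

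Genes were named with GENCODE M21 (GRCm38), which held 55240 of the 55426 identifiers. The other 186 were not named, among them 5 transgene features with 0 counts. The fit used edgeR (version 4.0.16, limma 3.58.1, R 4.3.3) with filterByExpr, TMM and the quasi-likelihood F test, and p-values were adjusted over all 16207 tested genes. The standard error is the log2 fold change divided by the square root of F. Ratios used a pseudocount of 0.5 count. Exact permutation tests were two-sided (scipy 1.17.1). At these depths 3 counts, taken as the smallest detectable amount, are 0.0943 to 0.122 CPM. That limit covers counting error only, since no molecular identifiers are described. Replicates differed by more than sampling noise (chi-square per degree of freedom 5.68 to 22.5). The scripts were tested on simulated data.

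The members and lists were chosen with earlier results of these data known. Named genes are all members, up to 4 called genes per list with a mean of at least 1 CPM (those with the 2 highest and 2 lowest log2 fold changes), and the nearest gene of each member. The genes overlapping a member, *Epcam*, *Cdh1*, *Ocln*, *Mafg*, *Maf*, *Batf*, *Batf3*, *Btg2*, *Ier2*, *Dusp14*, *Mrc1*, *Ptprc*, *Csf1r*, *Itgam* and *Lyz2* fall outside this rule and were named after their values were seen. A gene that the rule names and a detail of the tumor line are not reported here. Alternatives were other normalizations, filters, thresholds and tools, the replicate number as a block, and each sample left out.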

Additional observations from a re-analysis of the deposited data

How the results depend on the processing

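All 10 members kept the direction of their log2 fold change in the 14 alternative fits. The count of members called was 6 to 9 over the alternatives and 7 to 8 with 1 sample left out, that of members called higher 5 to 7 in both, and that of members called lower 0 to 2 in both. Without a fold limit 2 members were lower (*Egr1* and *Fos*) and 10168 genes were called instead of 5547, and with a fold change beyond 2 there were 3156 genes. With 1 sample left out, 5226 to 5662 genes were called. The call of *Egr1* was lost without normoxic replicate 3 (adjusted p = 0.0512 by edgeR, and from 0.000119 over the alternatives). Among the fits with 1 sample left out, *Fos*, *Junb* and *Jund* passed the fold limit in some.

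Deviations from the mean of the condition, taken over 16207 genes, correlated at 0.14, 0.14 and 0.04 for samples of the same number, and each sample correlated best with its own number, a hint from the data rather than from the design. The labels give the same numbers in both conditions but do not say what a number stands for. A fit in edgeR with a replicate block called 5572 genes and 6 members (5 higher and 1 lower), and the log2 fold change of *Egr1* was -1.29. DESeq2 (version 1.42.0) called 5305 genes and 5083 with the block, with 6 members in either fit. As means of same-numbered differences, the ratios and shares were unchanged in size, with an exact sign-flip p of 0.25, the smallest 3 pairs can give.

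The ratios and shares kept their direction under every alternative run. The low counts of *Fosb* and *Atf3* limit the precision of their values.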
